A study of Mus musculus with 2 samples.

Results

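The 10 genes described here encode proteins that neutrophils load into their granules or their cytoplasm at successive steps of maturation, and they are 10 of the 19430 genes named in the tables. The list was fixed by symbol, with earlier results of these data known. *Elane* (neutrophil elastase), *Mpo* (myeloperoxidase) and *Prtn3* (proteinase 3) belong to the azurophil granules. *Ngp* (neutrophilic granule protein), *Camp* (cathelicidin), *Ltf* (lactoferrin) and *Lcn2* (lipocalin 2) belong to the specific granules. *S100a8* and *S100a9* encode the subunits of calprotectin, the main cytosolic protein of the neutrophil, and *Retnlg* encodes a resistin-like protein of the mature cell.

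As background, neutrophils arise in the bone marrow, where promyelocytes transcribe the azurophil granule genes, myelocytes and metamyelocytes switch to the specific granule genes, and band and segmented cells keep *S100a8*, *S100a9* and *Retnlg* transcripts. The azurophil granule genes are largely silent in circulating cells, so their transcripts are known as signs of marrow precursors. Neutrophils enter a fracture within the first days and are followed by macrophages. *S100a8*, *S100a9* and *Lcn2* are also transcribed by other cells, among them monocytes, keratinocytes and chondrocytes, whereas the azurophil genes and *Ngp* are more closely tied to the granulocyte lineage.

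The tissue was the callus that forms around a broken distal tibia, taken at 10 days after a fracture held by an intramedullary pin in mice of 8 weeks. 1 mouse was a control, Nf1[+/flox], with no *Postn*-cre. The other was its *Postn*-cre;Nf1[flox/-] counterpart (Nf1Postn), which lacks 1 *Nf1* allele in every cell and loses the other where Cre is driven by the periostin promoter, in the periosteum. The calluses were embedded together, and 2 sections through them were read on Visium arrays, on which each spot of tissue is counted with its own barcode, by probe pairs made for fixed tissue. The control callus held 1700 spots in section 1 and 1778 in section 2, and the Nf1Postn callus 1341 and 1556. The median depth was 7053 and 5718.5 UMIs (unique molecules) per control spot against 2030 and 3239.8 per Nf1Postn spot. 2711 barcodes occurred in both sections, because the arrays share their layout, and these are not the same tissue. The sample titles call the sections biological replicates, while the design text describes 2 sections through calluses embedded together and does not give further animals. They were therefore taken as sections of 1 mouse per genotype and no test was run: intervals are exact 95% intervals that cover counting error only, and a difference is called only where it is at least 2-fold the same way in both sections. A spot holds several cells, so fewer neutrophils and less transcript per neutrophil cannot be told apart.

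The genes lie in a few clusters of the genome. On mm39, *Prtn3* (chromosome 10, 79710310 to 79719009) ends 3.07 kb before *Elane* (79722081 to 79724050), and *S100a8* (chromosome 3, 90576285 to 90577343) ends 22.6 kb before *S100a9* (90599939 to 90603029). *Camp* (chromosome 9, 109676447 to 109678686), *Ngp* (110248815 to 110252081) and *Ltf* (110848339 to 110871836) follow each other with gaps of 570.1 and 596.3 kb. *Mpo* is on chromosome 11 (87684407 to 87695240), *Lcn2* on chromosome 2 (32274645 to 32278265) and *Retnlg* on chromosome 16 (48692984 to 48694860).

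The 250 bases upstream of the start of 1 gene per stage are shown, because the stages differed by place and PU.1 and C/EBP factors are the textbook regulators of early and later granulocyte genes. Sequences are RefSeq's, build GRCm38.p6, read 5′ to 3′ on the gene's strand, and capitals mark the PU.1 core GAGGAA or the C/EBP letters TTGCNNAA on either strand. The windows are chr10:79886062-79886311 (plus strand), chr9:110419558-110419807 (plus strand), chr3:90668821-90669070 (plus strand) and chr16:48872358-48872607 (plus strand).
*Elane*: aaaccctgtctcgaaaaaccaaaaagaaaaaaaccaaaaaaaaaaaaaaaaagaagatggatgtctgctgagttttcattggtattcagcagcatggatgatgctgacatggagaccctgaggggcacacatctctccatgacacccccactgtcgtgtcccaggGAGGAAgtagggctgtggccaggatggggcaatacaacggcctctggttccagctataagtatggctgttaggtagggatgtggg
*Ngp*: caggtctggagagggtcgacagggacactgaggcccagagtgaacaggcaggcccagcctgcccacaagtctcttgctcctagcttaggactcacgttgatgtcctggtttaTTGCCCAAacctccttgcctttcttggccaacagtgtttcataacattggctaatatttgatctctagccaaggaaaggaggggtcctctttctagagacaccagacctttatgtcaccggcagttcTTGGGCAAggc
*S100a8*: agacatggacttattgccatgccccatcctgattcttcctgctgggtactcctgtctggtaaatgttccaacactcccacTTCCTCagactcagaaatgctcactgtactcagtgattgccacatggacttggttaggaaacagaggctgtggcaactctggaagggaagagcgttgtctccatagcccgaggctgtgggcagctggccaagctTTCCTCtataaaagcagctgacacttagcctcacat
*Retnlg*: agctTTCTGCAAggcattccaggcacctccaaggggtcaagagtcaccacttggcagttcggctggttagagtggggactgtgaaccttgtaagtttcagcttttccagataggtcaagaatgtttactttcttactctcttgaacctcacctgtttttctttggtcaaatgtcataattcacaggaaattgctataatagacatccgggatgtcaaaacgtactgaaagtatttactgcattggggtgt
Of the 10 members, all with a window, 6 held the PU.1 core and 5 the C/EBP letters, against 23.2% and 9.56% of 32851 promoter windows of this length. All 3 azurophil genes held GAGGAA, as *Elane* does above at 85 bases before its start, and none held the C/EBP letters. Of the 4 specific granule genes, *Ngp*, *Ltf* and *Lcn2* held the C/EBP letters and *Camp* held neither. *Ltf* and *Lcn2* also held the PU.1 core, so the letters did not split the stages. These matches are a description of letters, and binding was not measured.

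All members were sparse. Together they gave 10196 UMIs, 0.0290% of all UMIs, and 8 of 10 reached 50 UMIs in each section. *Mpo*, with 39 and 60 UMIs in sections 1 and 2, and *Retnlg*, with 43 and 29, did not. *S100a9* was seen in 28.7% of control and 19.8% of Nf1Postn spots, and *Elane* in 2.01% and 1.76%. These shares follow depth: thinned to 1000 UMIs per spot, where shallower spots leave and 3350 control and 2569 Nf1Postn spots remain, *S100a9* was expected in 7.05% of control and 9.34% of Nf1Postn spots, and *Elane* in 0.418% and 0.861%. For *S100a9* the sections differed: 8.78% of control and 14.7% of Nf1Postn spots in section 1, and 5.35% and 5.13% in section 2. Each gene has its own probes, so levels are compared between places and genotypes and not between genes.

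**Figure D1:**
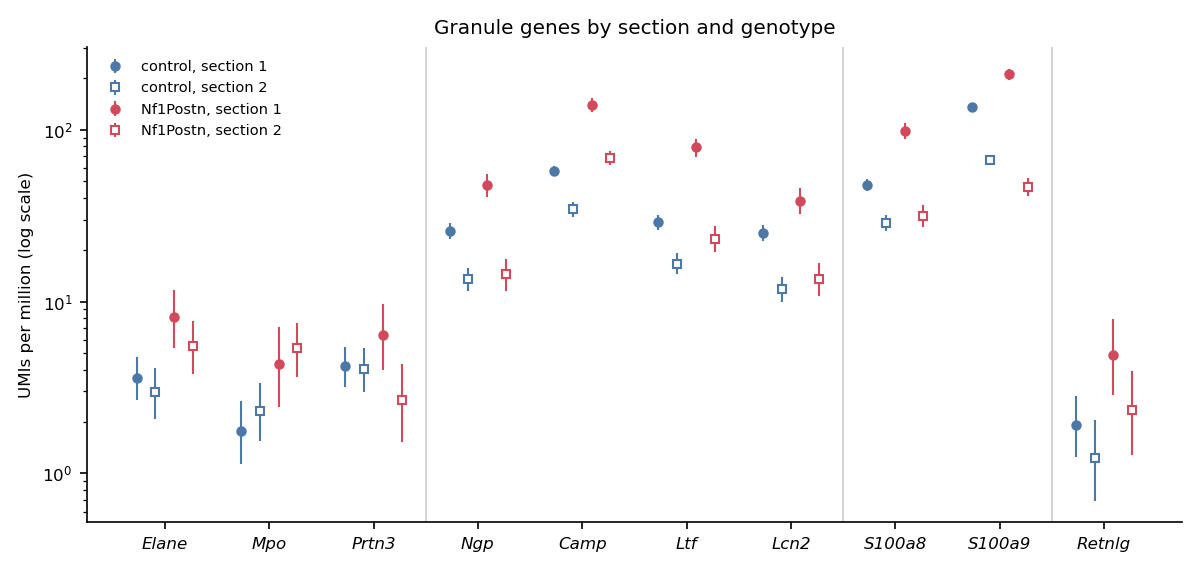
CPM of each member (UMIs per 1000000 UMIs of the callus, log scale), by section (filled circles, section 1; open squares, section 2) and genotype (blue, control; red, Nf1Postn), with exact Poisson 95% intervals. Section 1 was above section 2 in each genotype for the specific granule genes and both S100 genes, and *Camp* was higher in Nf1Postn than in control in each section.

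The azurophil granule genes are the first to be transcribed. *Elane* had 3.61 CPM (UMIs per 1000000 UMIs of the group) in section 1 and 2.97 in section 2 of the control callus, and 8.09 and 5.51 in the Nf1Postn callus. Both Nf1Postn sections were above both control sections, with a log2 ratio of 0.96 over both sections (0.47 to 1.46). *Mpo* had 1.77 and 2.31 CPM in control and 4.33 and 5.35 in Nf1Postn. It was the only member at least 2-fold higher in both sections, at log2 1.29 and 1.21, on counts of 24 and 28 against 15 and 32 UMIs that fall below the filter. Without that filter, 14% of 18796 genes were at least 2-fold higher in both sections, so the call does not set *Mpo* apart. As the mean of ratios within spot clusters *Mpo* turned to log2 -1.15. This mean holds a value set by the 3 counts given to a control group with no UMI, in cluster 6 (-1.97). Of the other clusters, described below, 3, 5 and 11 also pointed to control (-0.47, -1.79 and -2.87). Cluster 4 pointed to Nf1Postn (1.35), and all these ratios rest on few UMIs. *Prtn3*, the neighbor of *Elane*, had 4.20 and 4.04 in control and 6.35 and 2.67 in Nf1Postn. Its ratio pointed to Nf1Postn in section 1 (log2 0.60, -0.18 to 1.33) and to control in section 2 (-0.60, -1.51 to 0.24), and both intervals hold 0. The sum of the 3 genes was 9.46 CPM in control and 15.5 in Nf1Postn (log2 0.71, 0.40 to 1.01).

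All 4 specific granule genes were higher in Nf1Postn in each section, by amounts that differed between sections. *Camp* had 57.6 and 34.5 CPM in the control sections and 139 and 68.7 in the Nf1Postn sections, a log2 ratio of 1.27 in section 1 and 0.99 in section 2. *Ltf* had 29.1 and 16.6 in control and 78.9 and 23.2 in Nf1Postn, at log2 1.44 and 0.49. Both Nf1Postn sections were above the control section of the same number, but section 2 of Nf1Postn lay below section 1 of control for *Ltf*. *Ngp* (log2 0.88 and 0.09) and *Lcn2* (0.62 and 0.20) were higher in Nf1Postn in section 1 beyond counting error, and their intervals in section 2 hold 0. The sum of the 4 genes was 109 CPM in control and 187 in Nf1Postn (log2 0.78, 0.70 to 0.87).

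Of the S100 genes, *S100a9* turned between sections. *S100a8* was higher in Nf1Postn in both, in section 2 within counting error. *S100a9* had 136 and 66.4 CPM in control and 211 and 46.3 in Nf1Postn, so it was higher in Nf1Postn in section 1 (log2 0.64, 0.51 to 0.76) and lower in section 2 (-0.52, -0.72 to -0.32). *S100a8* had 47.7 and 28.5 in control and 98.2 and 31.4 in Nf1Postn, with log2 ratios of 1.04 and 0.14. *Retnlg* was counted 26 and 15 times in control and 17 and 14 times in Nf1Postn, at log2 1.36 and 0.92, with an interval in section 2 from -0.24 to 2.07.

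Of the 8 members with at least 50 UMIs in each section, 0 were at least 2-fold higher in Nf1Postn in both sections, against 4.21% of the 11851 genes with that many UMIs, and 0 were at least 2-fold lower, against 1.58%. 6 of the 8 were higher at all in both sections, against 30% of these genes, whose median log2 ratio was -0.07. Red cell genes moved with the genotype: the globin genes were at 219 CPM in control and 1679.8 in Nf1Postn (log2 2.94), and 10 erythroid precursor genes at 15.3 and 82.7 (log2 2.43). The genes listed as B cell precursor genes (*Vpreb3*, *Igll1*, *Cd79a*, *Cd79b*, *Rag1* and *Dntt*) were at 15.1 and 25.5. Their log2 ratio was 1.38 in section 1 and 0.24 in section 2 (-0.10 to 0.58). The part of marrow content in the ratios of the granule genes was not tested, and within spot clusters the ratios are given below.

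To place the genes in the tissue, the 5% of spots of each section with the highest summed level of erythroid and B cell precursor genes over the spot and its neighbors were taken as marrow anchors. No member and no other granulocyte gene is in those lists. Of 319 anchors, 271 lay in the Nf1Postn callus, 121 in section 1 and 150 in section 2, and 31 and 17 in the control callus. The Nf1Postn anchors had 895 erythroid precursor, 234 B cell precursor and 16345.9 globin CPM, against 24.1, 8.85 and 647 at 4 spots or more away. The erythroid and B cell differences follow from the choice of anchors, and the globin genes were not used in it. The 31 control anchors of section 1 instead had 107 erythroid and 917 B cell CPM, so the label marrow rests on B cell genes there. The 17 of section 2 had 367 erythroid, 138 B cell and 17178 globin CPM. Control anchors held few member UMIs, so the gradient is described mainly in Nf1Postn.

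**Figure D2:**
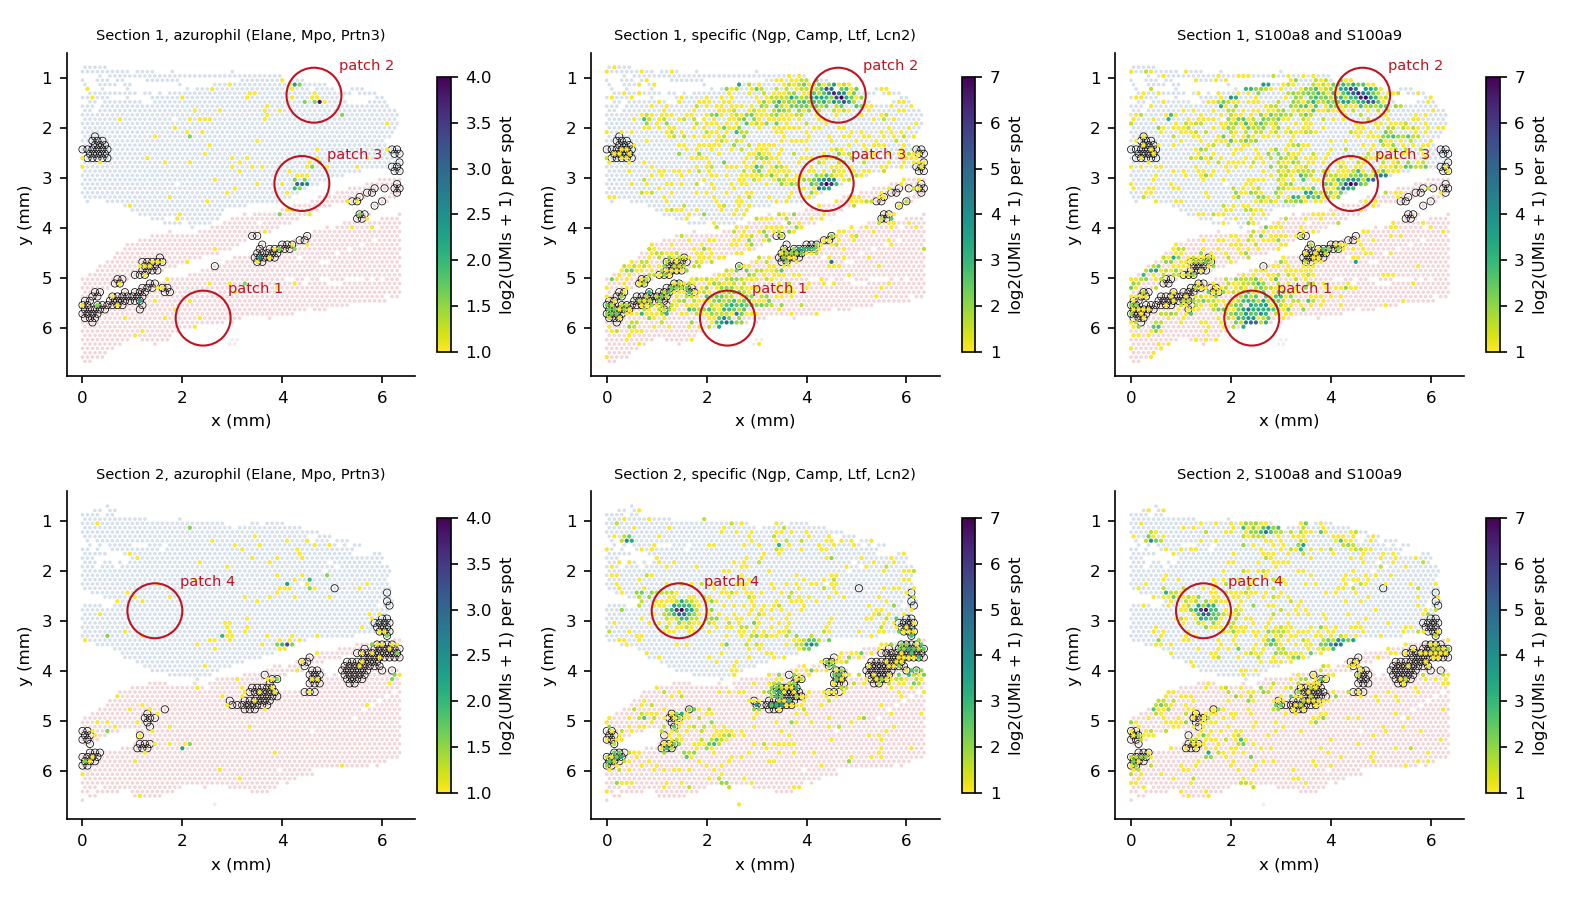
Maps of both sections (x and y in mm on the array) with UMIs of the azurophil, specific and S100 genes per spot as log2(UMIs + 1); blue and red grounds are control and Nf1Postn spots, black rings are anchors and red circles are the 4 dense patches. Azurophil UMIs of Nf1Postn gathered in the ringed spots, whereas S100 UMIs also covered callus far from them.

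In the Nf1Postn callus the azurophil and specific granule genes were higher in anchors than far from them in both sections, and the order of these groups differed between sections. The azurophil genes had 179 CPM in section 1 anchors and 110.4 in section 2 anchors, and 8.61 and 4.49 in spots at least 4 spots (400 µm) away. That is a log2 difference of 4.38 (3.49 to 5.30) and 4.62 (3.71 to 5.57), or 23.5-fold over both sections. *Elane* was 18.2-fold higher in anchors (25 against 20 UMIs, in 271 and 1689 spots), *Prtn3* 27.6-fold (17 against 9) and *Mpo* 33.4-fold (16 against 7). The specific granule genes had 1147.5 and 1099.7 CPM in the anchors of sections 1 and 2 and 242 and 43.4 far away, which is 4.75-fold and 25.3-fold. The azurophil difference was 20.8-fold and 24.6-fold, so it was the larger in section 1 and close to the specific one in section 2. In section 2 *Mpo* was 40.96-fold and *Prtn3* 38.2-fold higher in anchors, on few UMIs, *Camp* 31.99-fold and *Ltf* 23.5-fold. *Ngp* (15.8-fold), *Lcn2* (15.7-fold) and *Elane* (14.9-fold) differed less. Among the specific genes *Camp* was 13.8-fold, *Ltf* 8.45-fold, *Ngp* 6.40-fold and *Lcn2* 5.84-fold higher over both sections.

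The S100 genes had the smallest difference of these 3 groups in both sections. They had 484 and 409 CPM in the anchors and 314 and 42.4 far away, 1.54-fold and 9.64-fold. *S100a8* was 6.14-fold higher over both sections. *S100a9* was 1.98-fold higher over both sections, but its log2 ratio was -0.06 in section 1 and 2.60 in section 2. *Retnlg* was 4.56-fold higher on 5 UMIs in anchors, none of them in section 2. 7 of the 8 members above the filter were at least 2-fold higher in anchors in both sections, all but *S100a9*, against 7.92% of 11851 genes.

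For the specific and S100 genes, the difference between the sections lay mostly far from the anchors. The levels in anchors were close for the specific genes (1147.5 and 1099.7), while the far level was 242 in section 1 and 43.4 in section 2. The sections also differed in tissue. Muscle genes had 48357.6 CPM in section 1 and 86813.1 in section 2 of the Nf1Postn callus. A spot cluster led by *Myh7*, *Tuba8* and *Ckmt2* held 54 and 619 of its spots. The part of tissue in the far levels was not tested. Anchors were shallow, with a median of 1256.5 UMIs per Nf1Postn spot against 3040.5 far away, and muscle genes took 46238.9 CPM in anchors and 123724.8 at 8 spots or more. Without the 50 most abundant genes in the denominator the log2 differences were 4.40, 3.17 and 1.54 for the azurophil, specific and S100 genes. The 48 control anchors held 36 member UMIs in all, of which 4 were azurophil. In section 2 of control the log2 anchor ratios were 4.42 (2.52 to 5.82) azurophil, 2.77 (1.76 to 3.61) specific and 0.54 (-1.74 to 2.09) S100. In section 1 they were 0.13 (-0.93 to 1.01) specific and -0.81 (-2.13 to 0.24) S100, and azurophil UMIs were absent from those anchors.

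**Figure D3:**
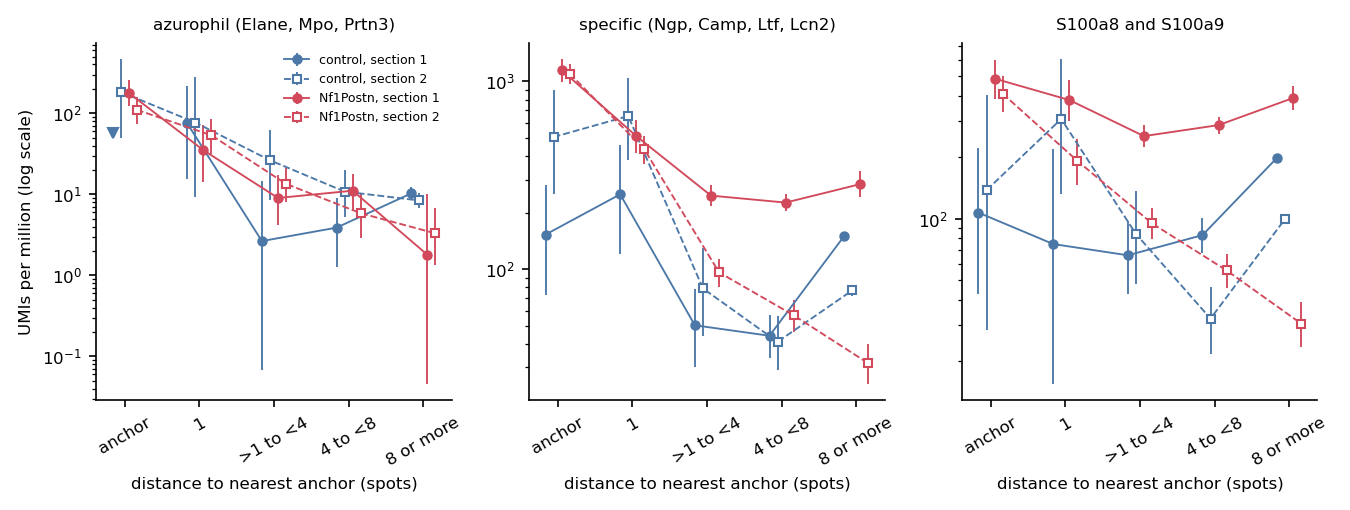
CPM (log scale) of the azurophil, specific and S100 genes by distance to the nearest anchor in spots of 100 µm, per section and genotype, with exact Poisson 95% intervals; the triangle is the upper limit where no UMI was counted. In Nf1Postn the azurophil genes go from 179 and 110.4 in anchors to 1.80 and 3.29 at 8 spots or more, while the S100 genes of section 1 are at 389.6 there.

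Counted the other way, 82 of the 146 azurophil UMIs of the Nf1Postn callus (56.2%) lay in anchors or their direct neighbors, which held 9.90% of its UMIs. The same spots held 40.02% of the specific and 20.9% of the S100 UMIs. In section 1 the shares were 58.5% azurophil, 28.6% specific and 14.9% S100, and in section 2 they were 54.3%, 56.8% and 34.6%, so azurophil and specific UMIs were set apart in section 1 and not in section 2. In the control callus 9 of 243 azurophil UMIs (3.70%) lay there, in spots with 0.596% of the UMIs. The control azurophil UMIs lay in 177 of 3478 spots, and 42 of the UMIs lay in the dense patches described below.

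The make-up of the granule transcripts, which does not depend on the depth of a spot, differed with distance. In the Nf1Postn anchors 8.11% of member UMIs were azurophil (6.22 to 10.4%), 65.5% specific and 25.7% S100, of 715 UMIs. In direct neighbors the azurophil share was 5.94%, at over 1 to under 4 spots 3.48%, at 4 to under 8 spots 2.70%, and at 8 spots or more 1.54% (0.67 to 3.01%), over both sections. By section it was 9.72% in anchors (6.70 to 13.5%) and 0.264% at 8 spots or more (0.0067 to 1.46%) in section 1, and 6.82% (4.54 to 9.77%) and 4.96% (2.02 to 9.96%) in section 2, where the intervals overlap. The specific share was higher in anchors in both sections, at 62.4% and 67.9% against 41.7% and 47.5% at 8 spots or more. Per S100 UMI there were 2.54 specific UMIs in anchors and 0.82 at 4 spots or more away. This ratio was 2.37 and 2.69 in the anchors of sections 1 and 2 and 0.77 and 1.02 far away, so it was higher in anchors in each section of this 1 mouse. Per 100 S100 UMIs there were 36.9 and 27 azurophil UMIs in anchors and 2.74 and 10.6 far away. In control spots at 8 spots or more from an anchor the azurophil share was 3.38% (2.95 to 3.86%) over both sections. This interval overlaps that of Nf1Postn at the same distance over both sections (0.67 to 3.01%) and in section 2. It lies above that of Nf1Postn in section 1 (0.0067 to 1.46%).

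**Figure D4:**
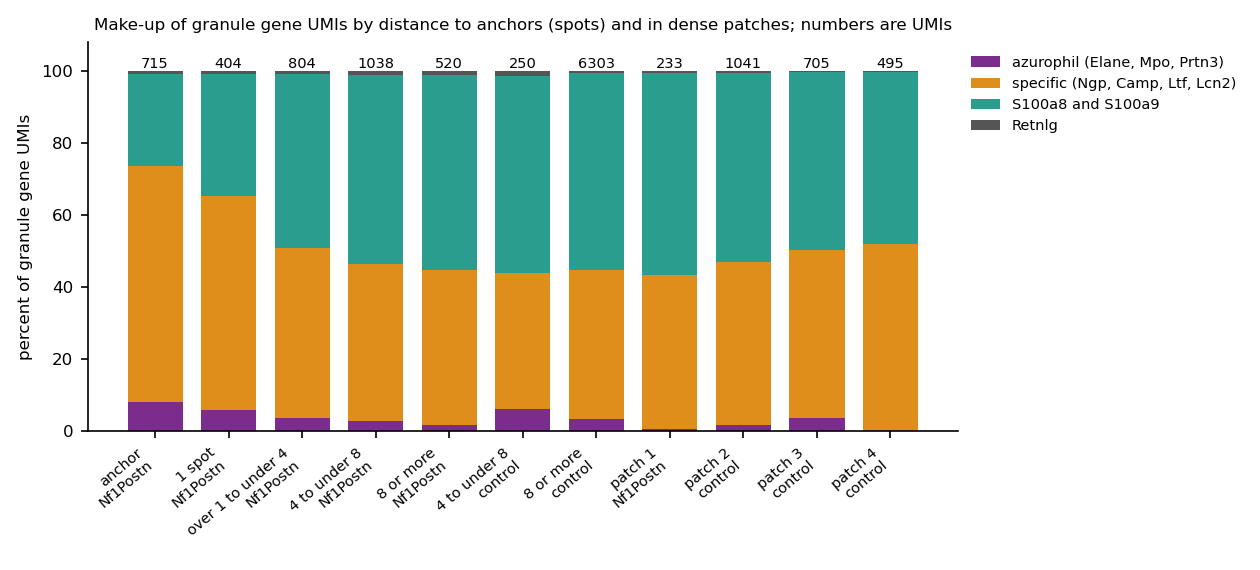
Stacked shares of the 4 stages in all granule gene UMIs (percent, bars from 0 to 100), by distance to anchors in Nf1Postn and control and in the 4 dense patches; the number above a bar is its UMIs. The specific share is 65.5% in anchors and 43.3% at 8 spots or more in Nf1Postn, and patch 4 has no azurophil UMI.

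Away from the anchors, specific and S100 UMIs lay in 4 dense patches and also outside them. A patch was at least 3 spots with at least 20 UMIs of these genes each, within 2 spots of one another. This choice used the specific and S100 values, so those are a description, and the azurophil genes, *Retnlg* and the other genes were not used. The 20 UMIs were raw counts, not scaled to depth, so shallow spots could reach them less easily. Control spots were deeper (median 6370 UMIs) than Nf1Postn spots (2642) and Nf1Postn anchors (1267.5 in section 1, 1228.8 in section 2). The rule therefore favored control spots, and its part in where patches were found was not tested. Patches 2, 3 and 4 lay in the control callus, 16.5, 16.7 and 35.4 spots from the nearest anchor, and patch 1 in the Nf1Postn callus, 6.93 spots away. Patches 2 and 3 held 23.1% and 15.6% of all member UMIs of the section 1 control callus in 11 and 8 of its 1700 spots. Patch 4 held 22.4% of those of the section 2 control callus in 5 of 1778 spots, and patch 1 held 10.6% in 6 of 1341 spots. The single highest spot, in patch 3, had 109 *S100a9*, 72 *Camp* and 49 *S100a8* UMIs among 5382.5.

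The patches differed in their azurophil genes. Patch 4 had 0 azurophil UMIs beside 257 specific and 237 S100 UMIs, which allows a share of up to 0.742% of its 495 member UMIs. Patch 1 had 1 of 233 (0.429%, 0.01 to 2.37%). Patch 3 had 25 of 705 (3.55%, 2.31 to 5.19%), with 9 *Elane*, 7 *Mpo* and 9 *Prtn3* UMIs, and patch 2 had 17 of 1041 (1.63%, 0.95 to 2.60%). In patch 2, 13 of the 17 lay in 1 spot with 6 *Elane*, 3 *Mpo* and 4 *Prtn3* UMIs. The intervals of patches 3 and 4 do not overlap. *Retnlg* had 6 UMIs in patch 2 and 1 in each of the others.

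Genes that did not enter the choice of patches also stood out there, and those named were picked after their values were seen. *Pglyrp1*, a peptidoglycan recognition protein of neutrophil granules, was among the 3 genes with the highest ratio to the rest of the callus in every patch, with 11, 19, 30 and 11 UMIs in patches 1 to 4, where genes needed 10 UMIs to be ranked. *Fcnb*, a ficolin of granulocyte precursors, led patch 3 with 10 UMIs (log2 7.36), and *Padi4*, an enzyme that citrullinates histones in neutrophils, led patch 2 with 10 (log2 4.46). Erythroid precursor genes had 0, 2, 0 and 0 UMIs in patches 1 to 4, B cell precursor genes 1, 2, 0 and 11, and keratinocyte genes 0, 2, 0 and 2. In patch 4 the B cell precursor genes were at 186.7 CPM, against 16.4 in the control callus of that section. Macrophage genes had 923, 1199.3, 932 and 645 CPM against 869.8 in the whole control and 710.4 in the whole Nf1Postn callus. The patches differed in their surroundings. Muscle genes had 77187.1 CPM in patch 1 against 48357.6 in the Nf1Postn callus of that section. Patch 2 had 906 CPM of adipocyte genes against 129 in its callus, with *Adipoq* and *Cfd* among its leading genes, and 10326.8 of cartilage genes against 42477.9. Osteoclast genes in patch 4 had 5839.7 against 6319.5 in its callus.

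Without the patches the genotype ratios were larger for each of these groups, at log2 0.97 for the azurophil, 1.38 for the specific and 0.60 for the S100 genes, an alternative chosen after the data were seen. The patch rule favored the deeper control spots, so leaving patches out is not even between genotypes. The 1% of control spots with most UMIs of the genes in question held 42.7% of the specific and 37.6% of the S100 UMIs, and the 1% of Nf1Postn spots 17.5% and 22.4%.

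Spots were grouped into 14 clusters from genes other than the members and their companions, and clusters are called here by their leading genes. Cluster 7, led by *Hbb-bt*, *Hbb-bs*, *Hba-a2*, *Dmtn* and *Car2*, genes of the red cell lineage, had the highest azurophil and specific levels of the 14, at 106 and 930.1 CPM in 418 spots, and its S100 level was 333. Cluster 5 (*Angptl7*, *Cilp2*, *Myoc*), next for the azurophil genes, had 26.97, with an interval that does not reach cluster 7. Cluster 11 (*Cfd*, *Cadm4*, *Cxcl14*, *Myoc*, *Gap43*, *Adipoq*), with fat cell genes among others, had the highest S100 level over both sections at 415. That level rests on section 1 (602) and in part on patches 2 and 3. In section 2 cluster 11 had 189.8, below the 329 of cluster 7. Cluster 12 (*Ucp3*, *Padi2*, *Perm1*), with muscle genes, had the lowest S100 level at 29.9. In cluster 8 (*Col10a1*, *Ihh*, *Snorc*, *Col2a1*) and cluster 13 (*Ucma*, *Scrg1*, *Cnmd*), both of cartilage genes, the S100 genes had 82.2 and 89.5 and the azurophil genes 7.03 and 4.78. Cluster 7 held 216 and 178 Nf1Postn spots in sections 1 and 2 against 6 and 18 control spots, at a median of 1069 UMIs. Cluster 12 also lay mostly in Nf1Postn, and clusters 8 and 13 mostly in control. Cluster and genotype therefore cannot be told apart in these levels.

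Within 6 clusters each genotype had at least 20 spots per section, so the genotypes could be set side by side within a cluster, whose spots can still differ in tissue. In cluster 4 (*Hba-a2*, *Hbb-bs*, *Igkc*, *Car2*), with red cell and antibody genes, the specific genes had 125 CPM in control and 244 in Nf1Postn, higher in both sections (log2 0.57 and 1.49). The S100 genes were higher there too (0.97 and 1.55). In cluster 9 (*Tnnt2*, *Myh8*, *Myh3*, *Myl4*), with genes of newly formed muscle fibers, the specific genes had 44.5 in control and 232 in Nf1Postn (3.16 and 1.06), while the S100 genes were higher in section 1 (3.23) and lower in section 2 (-0.88). In cluster 11 the direction was the opposite: the specific genes had 406 in control and 74.6 in Nf1Postn (-2.51 and -1.29) and the S100 genes 591 and 126 (-2.59 and -1.17). Patches 2 and 3 lay partly in cluster 11, and without them its specific ratio was 0.26 in section 1 and -1.29 in section 2, while its S100 ratio kept its direction (-0.94 and -1.17). Patch 1 lay in cluster 9, where the specific ratio of section 1 without it was 2.66. The specific ratios of the remaining clusters were 1.99 and 0.50 in cluster 6, 2.62 and -0.12 in cluster 5 and -0.63 and 0.51 in cluster 3. The mean of the 6 ratios was log2 0.06 for the azurophil, 0.40 for the specific and 0.35 for the S100 genes, against 0.71, 0.78 and 0.20 over all spots.

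**Figure D5:**
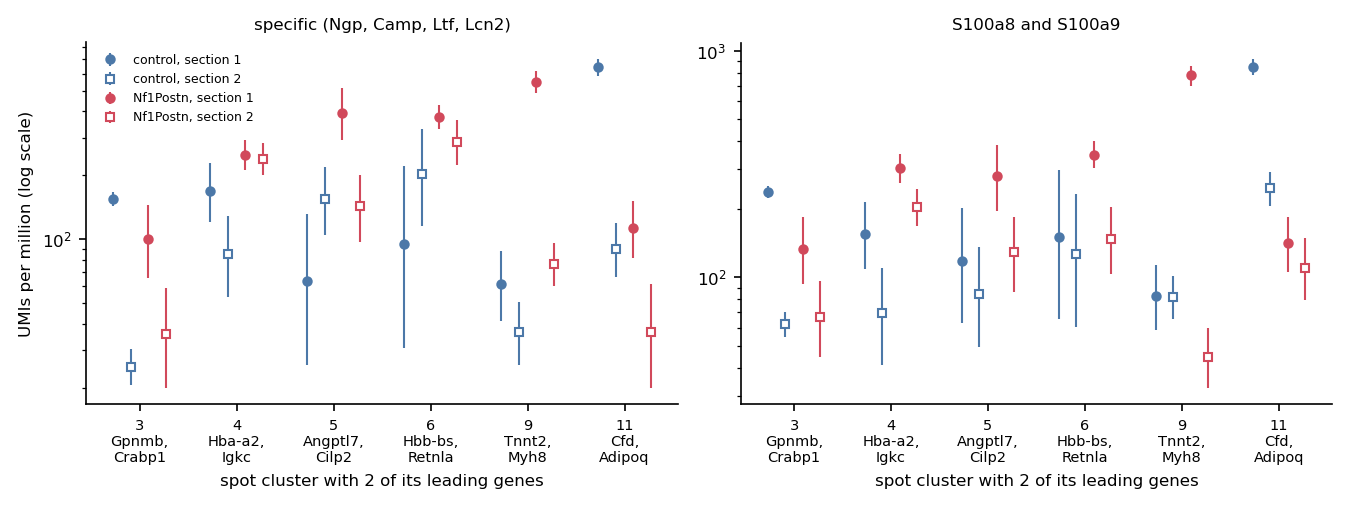
CPM (log scale) of the specific and S100 genes in the 6 clusters with at least 20 spots of each genotype and section, with exact Poisson 95% intervals (filled circles, section 1; open squares, section 2; blue, control; red, Nf1Postn). Cluster 11 has control above Nf1Postn in each section, and cluster 4 has Nf1Postn above control in each section.

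Along the control callus of section 1, the study's positions from the fracture plane outward were grouped into 5 bins of 200 to 312 spots. The specific genes had 88.6 CPM in the bin at the plane, 199 and 278 in the next bins, and 93.3 and 47.6 in the outer ones. The azurophil genes had 6.31, 7.11, 25.2, 7.29 and 3.55, so the third bin was the highest of the 5 for both groups. Without the patches the specific genes had 88.6, 105, 92.6, 54.8 and 47.6 and the azurophil genes 6.31, 6.52, 11.4, 4.89 and 3.55. By the study's tissue names, the S100 genes without the patches had 218 in progenitor, 149 in ossifying perichondrium, 98.3 in cartilage, 87.5 in woven bone and 155 in the 50 spots of distal cortical bone. With the patches the progenitor spots had 769.7 and the ossifying perichondrium 228, so the patches held much of the progenitor level.

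Spot by spot the members were only weakly correlated, over 1126 to 1695 spots per section and genotype with at least 1000 UMIs, which share depth and tissue. The median Pearson r of log2(CPM + 1) was 0.28 for *S100a8* with *S100a9*, 0.26 for *Camp* with *Ltf* and with *S100a8*, and 0.10 for *Elane* with *Mpo*, and *Retnlg* was at 0.06 or less with each other member. Over the 41 groups of cluster, section and genotype, the specific genes followed the S100 genes at r = 0.81 and the azurophil genes at 0.49. The genes outside the members most like the azurophil sum over these groups were *Asns* (r = 0.71), *Atp2a3* (0.68), *Ptgs1* (0.67), *Rtf2* (0.66) and *Gda* (0.66). For the specific sum they were *H4f16* (0.71), *Sec11c* (0.71), *Rnf187* (0.70), *AI467606* (0.68) and *Car2* (0.67), and for the S100 sum *Blvrb* (0.69), *Alox5ap* (0.68), *Sipa1*, *Tmsb4x* and *Glipr2*. Most like *Retnlg* were *Lin37*, *Prkar1a*, *Nit2*, *N6amt1* and *Ap3s2*, at 0.57 or less on 72 UMIs.

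Companion genes of each step gave a reading apart from the members. 5 further genes of the promyelocyte (*Ctsg*, *Ms4a3*, *Prss57*, *Gfi1*, *Cebpe*) had 95.7 CPM in Nf1Postn anchors (40 UMIs) and 1.86 at 8 spots or more away (5 UMIs). 5 genes of the myelocyte step (*Chil3*, *Fcnb*, *Cd177*, *Padi4*, *Mmp8*) had 95.7 and 11.6, and 8 genes of the mature cell, among them *Cxcr2* and *Csf3r*, had 132 and 17.2. Between genotypes the lists were at 7.32, 10.0 and 44.8 in control and 11.3, 21.4 and 46.5 in Nf1Postn. Of these 18 genes, *Cd177* and *Cxcr2* were at least 2-fold higher in Nf1Postn in both sections, with no filter on counts, where 14% of genes were. *Csf3r*, the receptor of the growth factor G-CSF, was at 27.9 in control and 27.8 in Nf1Postn, and *Il1r2*, a decoy receptor, at 4.13 and 2.54. The genes of neutrophil attractants and G-CSF (*Cxcl1*, *Cxcl3*, *Cxcl5*, *Csf3*) were at 17.8 in control and 8.57 in Nf1Postn, lower in both sections (log2 -0.84 and -1.20).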

How the data were processed

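Visium libraries for fixed tissue were made from 2 sections through the distal tibia calluses of a control and a Nf1Postn mouse, embedded together. Tissue was fixed in formalin for 24 h and decalcified in 14% EDTA for 3 days. The authors deposited 1 table of expected counts per section, which are UMI counts per gene and spot from Space Ranger 1.3.0, named in the submitters' processing notes, on mm39. A few entries that join several gene IDs are means and need not be whole, and the entry with no gene (5.24e-05% of UMIs) was left out. Spots took their genotype from the deposited table, and 5 spots without one were left out. The titles call the sections biological replicates, whereas the design text describes 2 sections through calluses embedded together. They were taken as sections of the same calluses, which the sources do not state outright, so intervals cover counting error and no p-value is given. Values over both sections were made from summed UMIs, so they weight sections by depth, which differed between genotypes. The study compared genotypes over spots, which was not repeated here.

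Levels were CPM, the UMIs of a gene over all UMIs of a group, with exact Poisson intervals, shares had exact Clopper-Pearson intervals, and log2 ratios had exact conditional binomial intervals, all at 95%. A group at 0 was given 3 counts, and 0 against 3 or fewer gave no ratio. Spots were clustered on log2(CPM + 1) with 20 principal components, 15 neighbors and Leiden resolution 0.5, without the members and their companion genes. Python 3.11.15, numpy 2.4.6, scipy 1.17.1, pandas 2.3.3, scikit-learn 1.9.0, leidenalg 0.10.2, matplotlib 3.10.9 and, for TMM factors, edgeR 4.0.16 in R 4.3.3 were used. The ratios and calls were tested on simulated data. The tissue names and positions of the section 1 control spots came from the study's supporting values and were used only to group spots.

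The members and gene lists were chosen with earlier results of these data known. All members are named in each comparison, list genes by sum or where a list is broken down, the 5 genes most like each stage among those with 500 UMIs, and 3 to 6 leading genes of a cluster. Alternatives were other denominators, TMM scaling, thinning depths, anchor rules, cluster settings, filters and leaving out 1 section.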

Additional observations from a re-analysis of the deposited data

Results flagged for a closer look

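The genotype ratio differed between spot clusters: every section of some clusters pointed to Nf1Postn and every section of another to control. The difference between clusters was not tested, since there is 1 mouse per genotype. For the specific granule genes the log2 ratio of Nf1Postn over control was 0.97 in cluster 4, with red cell and antibody genes, 2.39 in cluster 9, with genes of new muscle fibers, and -2.44 in cluster 11, with fat cell genes among others. For the S100 genes it was 1.20 in cluster 4 and -2.23 in cluster 11. The dense patches were chosen after the data were seen and by their specific and S100 counts, which were not scaled to depth. Without them the ratios of the specific genes were 1.21, 1.95 and -0.30 and those of the S100 genes in clusters 4 and 11 were 1.51 and -1.05. The specific ratio of cluster 11 then pointed to Nf1Postn in section 1 (0.26) and to control in section 2 (-1.29).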

How the results depend on the processing

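The replicate numbers name 2 sections that each hold both calluses, so genotypes were compared within sections. No paired test was run, because there is 1 mouse per genotype. Ratios over both sections come from summed UMIs, and those within each section are given by the values with 1 section left out. With 1 section left out at a time, the log2 genotype ratio ran from 0.54 to 0.97 for the azurophil, 0.65 to 1.14 for the specific, -0.29 to 0.75 for the S100 genes and 0.92 to 1.36 for *Retnlg*. The log2 ratio of anchors over far spots ran from 4.38 to 4.62, 2.25 to 4.66, 0.62 to 3.27 and 2.45 to 3.11. The last pair is *Retnlg*, and its 2.45 is section 2, where the anchors held no *Retnlg* UMI and were given 3 counts. Between anchors and far spots the log2 ratio of azurophil to S100 UMIs ran from 1.35 to 3.75 and that of specific to S100 UMIs from 1.39 to 1.62. As the mean within clusters, the genotype ratio was 0.065 for the azurophil genes (0.71 over all spots) and 0.40 for the specific genes (0.78). It was -0.24 for *Retnlg* (1.04) and -1.15 for *Mpo* (1.297), so both turned. In cluster 6 control had no UMI of either gene and was given 3 counts. The values there, -2.29 and -1.97, pointed to control though the UMIs lay in Nf1Postn. For *Mpo*, clusters 3, 5 and 11 pointed to control as well and cluster 4 to Nf1Postn. For *Retnlg*, clusters 3 and 11 pointed to control and clusters 4 and 9 to Nf1Postn. Cluster 5 gave no value for *Retnlg* and cluster 9 none for *Mpo*. As the mean over spots of log2(CPM + 1) the genotype ratio was 0.0019 for the azurophil genes and 0.0077 for *Retnlg*. Without the 1% of spots with most UMIs of the item, per section and genotype, it was 1.29 for the specific genes and 0.63 for *Retnlg*. For *Retnlg* those spots held all UMIs of section 2 in both genotypes. In section 1 they held 73.1% of its UMIs in control and 76.5% in Nf1Postn, so the 0.63 rests on few UMIs of that section. Without the dense patches, chosen after the data were seen and by their specific and S100 counts, the genotype ratio was 1.38 for the specific genes. With TMM scaling it was 0.59, 0.67 and 0.08 for the azurophil, specific and S100 genes, and *S100a9* turned to -0.07.

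The anchor ratio of the azurophil genes (4.56) was 4.34 without the 1% of spots with most azurophil UMIs and 1.45 as a mean of log2 values. It was 4.87 and 4.84 with 2% and 10% of spots as anchors, and 4.01 with B cell genes alone. That of *Retnlg* (2.19) was 0.10 as a mean of log2 values and 2.92 and 1.21 with 2% and 10% of spots. Without the 1% of spots with most *Retnlg* UMIs it gave no value. The log2 ratio of the cluster with most anchors over other spots for the azurophil genes (3.44) was 3.35 and 4.10 at resolutions 0.3 and 1 and 3.34 with all genes kept. The difference in thinned share of spots between genotypes was 0.674 and 0.434 percentage points at 500 and 2000 UMIs for the azurophil genes (0.913 at 1000) and 0.389 at 2000 for *Retnlg* (0.181). Without the filter on counts, 2633 genes in place of 499 were at least 2-fold higher in Nf1Postn. Causes were not tested. Of single members other than *Retnlg*, which was treated as a stage, 72 of 81 genotype values and 98 of 99 anchor values kept their direction. These values reuse the same UMIs of 1 mouse per genotype, so the tally is no independent support. The main genotype ratios of *Prtn3* (log2 -0.04) and *S100a9* (0.05) were too small for their direction to carry meaning. Depth limits *Mpo*, *Retnlg* and the azurophil genes of the control anchors.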
